A study of Arabidopsis thaliana with 12 samples.

Results

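The array carries a run of probe sets for genes of the mitochondrial and plastid genomes, and their signal was followed through 4 genotypes that differ in the stomatal lineage. It was taken as a stretch of consecutive probe set id numbers, whatever their values, in which the second, 244902_at, carries nad4L and the last carries psbK. It holds 150 of the 22810 probe sets on the array. The platform annotation names a gene for 105 of them. Of these, 77 carry plastid genome genes and 13 mitochondrial genome genes. The remaining 15 named probe sets carry nuclear genes of chromosome 2 that share the id range, and 45 are unnamed here. The label "organelle-genome probe sets" therefore holds for the 90 plastid and mitochondrial probe sets, and the other 60 are given separately. No sequences were used here for these probe sets, so none is printed.

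Total RNA came from whole seedlings of Arabidopsis thaliana, ecotype Col-0, 5 days after germination, with 3 arrays for each genotype. The 4 genotypes were wild type (WT), the mutant spch (speechless), the mutant scrm-D and the double mutant scrm-D;mute. By the labels, the epidermis of spch has pavement cells only, that of scrm-D guard cells only, and that of the double mutant is nearly all meristemoids, the dividing precursors of guard cells. SPCH and MUTE are transcription factors that start and end the meristemoid stage, and SCRM is their partner. The dominant allele scrm-D of that gene is carried by both scrm-D and the double mutant. The labels give no allele name for spch or mute and no number of seedlings per sample. Replicates are numbered 2, 3 and 4 and are called biological, but nothing says that they were grown separately, so that a p-value reflects how far these samples scatter, which may be technical. The descriptions given for the scrm-D samples mention the double mutant instead, so their titles and genotype entries, which read scrm-D, were followed. All comparisons with WT use the same 3 WT arrays.

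The plastid genome encodes part of the photosynthetic machinery: subunits of both photosystems, the cytochrome b6f complex, the ATP synthase, the NDH complex, which returns electrons to the plastoquinone pool, and the large subunit of RuBisCO. It also encodes ribosomal proteins and the core subunits of a plastid RNA polymerase, which works beside a polymerase made in the nucleus. Most plastid genes lie in clusters that are transcribed together, and the transcripts are then cut, spliced and edited. The plant mitochondrial genome encodes subunits of the respiratory chain, proteins that mature cytochrome c and ribosomal proteins. In both organelles a poly(A) tail marks RNA for decay. The cDNA was primed with oligo-dT here, so these probe sets report the RNA that such a primer reached, which is not the whole organelle transcript pool. In whole seedlings, fewer plastid-rich cells and less plastid RNA per cell cannot be told apart.

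Several libraries stand apart in ways that touch these probe sets. Plastid signal was low on replicate 4 of every genotype. The median over the 77 plastid probe sets, in the order replicate 2, 3 and 4 used throughout, was 11.31, 11.31 and 10.72 (log2 units) in WT. In spch it was 11.74, 11.60 and 11.27. In scrm-D it was 10.90, 10.92 and 10.03, and in the double mutant 10.99, 10.94 and 10.68. Replicate 4 was thus the lowest array of each genotype. The mean of the hybridization controls was also lower on replicate 4, at 9.40 to 9.89 against 9.99 to 10.64 on the other 8 arrays. The 25S rRNA control ran from 6.56 to 7.50 in WT, 8.66 to 11.04 in spch, 8.98 to 10.07 in scrm-D and 6.96 to 11.06 in the double mutant. Every WT array thus lay below every spch and scrm-D array. A fit with this control as a term cannot fully separate it from those genotypes. The phe controls, bacterial labelling controls, read 13.07 to 13.09 on the 3 scrm-D arrays and 4.15 to 5.15 on the other 9, so that this difference and the scrm-D genotype cannot be told apart. The part of these measures in the plastid values was not tested beyond the fits given below with 25S rRNA or the hybridization controls as terms or without replicate 4.

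Of 12 cell type markers, 10 had a named probe set. The green tissue marker LHCB4.1, an antenna protein, read 13.50, 13.56 and 13.50 in WT, 13.47, 13.53 and 13.55 in spch, 13.27, 13.31 and 12.98 in scrm-D and 13.19, 13.06 and 12.95 in the double mutant. RCA, RuBisCO activase, read 14.00, 13.96 and 13.97 in WT, 14.08, 14.17 and 14.11 in spch, 13.68, 13.73 and 13.72 in scrm-D and 13.75, 13.79 and 13.72 in the double mutant. Both were thus lower in both genotypes with scrm-D, without overlap, as was LHCB4.2 against WT, which ran from 11.58 to 12.98 and was highest in WT. The root marker EXPA18 read 4.53, 4.95 and 4.91 in spch, under the background level of 4.99, the 95th percentile of controls absent from the samples, and 6.05 to 6.84 on the other 9 arrays. EXPA7 read 5.38, 5.33 and 5.22 in spch and 6.06, 6.06 and 6.58 in WT. Root markers were thus lower in spch than in WT, and the part of root and green tissue in the plastid values was not tested. GC1, a guard cell gene, read 10.74, 10.38 and 10.86 in WT, 12.54, 12.86 and 12.66 in scrm-D, and 8.98, 8.21 and 6.84 in the double mutant. In spch it read 9.70, 9.64 and 4.31, so that replicates 2 and 3 held guard cell signal and replicate 4 lay under the background level. The labels give all 3 spch samples the same epidermis. FAMA, which acts late in guard cell formation, read 6.36, 6.12 and 5.64 in spch against 6.79 to 7.07 in WT. SPCH, the gene mutated in spch, read 5.41, 5.11 and 5.41 there and 6.15, 6.71 and 6.22 in WT. MUTE, the gene mutated in the double mutant, read 10.61 to 11.00 there and 4.42 to 4.52 in WT, so its probe set does not check for loss of the gene product.

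Most plastid probe sets lay above the background level. Among them, 3 of 77 had a mean over all arrays under the background level. These were ndhF (3.86) and the probe sets shared by both copies of ndhB (4.76) and of ycf2 (4.93). Of the 13 mitochondrial probe sets, 7 lay under it, as did 27 of the 45 unnamed ones. The mean over 12 arrays ran from 3.86 to 14.36 for plastid and from 4.48 to 9.07 for mitochondrial probe sets. These levels depend on the probes as well as on the RNA, so they are not ranked against each other. All 150 were tested without a filter.

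By group means, plastid signal was highest in spch. Against WT, 10 of 77 plastid probe sets rose in spch and none fell, where 9.6% of all 22746 tested probe sets rose and 9.93% fell (limma, adjusted p under 0.05). The share of plastid probe sets that rose, 13.0%, is near that background. The median change of the 77 was 0.42 on the log2 scale, ranging from −0.47 to 1.15, against −0.0045 over all probe sets. Fitted changes were above 0 for 70 and below 0 for 7, and in 21 all 3 spch arrays lay above all 3 WT arrays. This last count has no share over all probe sets beside it. The risen genes were 2 of 4 RNA polymerase subunits, 3 of 20 ribosomal proteins, 2 of 11 NDH subunits, 1 of 15 photosystem II subunits, 1 of 6 cytochrome b6f subunits and clpP. None of 5 photosystem I, 6 ATP synthase and 4 ycf probe sets passed the test without the replicate block described below.

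The polymerase subunit rpoA (244978_at), which encodes the alpha subunit, read 11.01, 11.33 and 10.98 in WT and 11.87, 11.88 and 11.69 in spch. In scrm-D it read 10.91, 10.84 and 10.80, and in the double mutant 10.93, 11.02 and 11.27. Each spch array lay above every array of the other genotypes. The rise over WT was 0.70 ± 0.13 (SE) on the log2 scale, 1.63-fold, with an adjusted p of 0.00211. rpoC1 (244998_at), a subunit of the catalytic core, read 10.31, 10.45 and 9.91 in WT and 11.31, 11.26 and 10.77 in spch. It rose by 0.89 ± 0.27, 1.86-fold (adjusted p = 0.0351), again without overlap. rpoB, the other large core subunit beside rpoC2, read 5.50, 5.13 and 4.87 in WT and 6.35, 5.65 and 5.45 in spch, and the groups overlapped. Its change of 0.65 ± 0.29 did not pass (adjusted p = 0.157), nor did that of rpoC2, at 0.71 ± 0.39 (adjusted p = 0.246).

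Among ribosomal proteins, rpl20 (244970_at) read 9.75, 9.80 and 9.46 in WT and 10.77, 10.96 and 10.26 in spch. The rise was 0.99 ± 0.24, 1.99-fold, with an adjusted p of 0.011. rpl36 (244980_at) read 10.23, 9.82 and 9.86 in WT against 10.87, 10.86 and 10.54 in spch, a rise of 0.79 ± 0.18 (1.73-fold, adjusted p = 0.00932). For both proteins of the large ribosomal subunit the lowest spch array lay above the highest WT array. rpl14 (244982_at) read 9.80, 9.91 and 9.51 in WT and 10.99, 11.03 and 10.12 in spch, and rose by 0.97 ± 0.28 (1.96-fold, adjusted p = 0.0313). The 20 ribosomal protein probe sets had a median change of 0.51.

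clpP (244971_at), the proteolytic subunit of the Clp protease, read 12.27, 12.09 and 11.85 in WT and 12.70, 12.67 and 12.31 in spch, a rise of 0.49 ± 0.14 (adjusted p = 0.0305). petG (244966_at), a small subunit of the cytochrome b6f complex, read 7.67, 7.84 and 7.25 in WT and 8.52, 8.41 and 7.97 in spch. It rose by 0.71 ± 0.22 (1.64-fold, adjusted p = 0.0368), and as for clpP the groups did not overlap. The probe set for both copies of ndhB rose by 0.69 (adjusted p = 0.0159), with a mean over all arrays under the background level.

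Several other genes did not pass. rbcL, the RuBisCO large subunit, read 11.35, 10.46 and 10.27 in WT and 11.74, 11.45 and 11.23 in spch. The highest WT array lay within the spch range, and the change of 0.78 ± 0.34 had an adjusted p of 0.134. psbA, which encodes the D1 protein of photosystem II, read 13.53, 13.19 and 13.77 in WT and 13.49, 13.62 and 13.29 in spch, with a difference of −0.03 ± 0.18. atpB, the beta subunit of the ATP synthase, differed by 0.15 ± 0.14, and psaA and psaB, the core of photosystem I, by 0.31 ± 0.53 and 0.32 ± 0.24. petD, subunit IV of the cytochrome b6f complex, was the plastid probe set with the lowest fitted change, −0.47 ± 0.28 (adjusted p = 0.293).

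The count in spch depended on the fit and on single arrays. Over the plastid probe sets, same-numbered arrays of spch and WT deviated together for replicate 2 (r = 0.74) and replicate 4 (r = 0.70). For replicate 3 they did so less (r = 0.18), and spch replicate 3 went further with WT replicate 2 (r = 0.31). When replicate number entered the fit as a block, 34 of 77 plastid probe sets rose in spch, against 11.7% of all probe sets. These included all 4 polymerase subunits (rpoB adjusted p = 0.00733, rpoC2 0.00866), 13 of 20 ribosomal proteins, 2 of 5 photosystem I, 2 of 6 ATP synthase and 2 of 4 ycf probe sets, rbcL (adjusted p = 0.00783) and accD, a subunit of acetyl-CoA carboxylase (change 0.85, adjusted p = 0.226 without and 0.00658 with the block). Without replicate 4 of every genotype the count was 22 (all probe sets, 6.95%). With 25S rRNA as a term 3 rose (all probe sets, 4.86%) and the median change was 0.31. WT and spch do not overlap in that control, so this fit cannot fully separate it from genotype. Leaving out spch replicate 2 left 3, where 1694 of all 22746 probe sets rose. Leaving out spch replicate 3 or WT replicate 4 left 4 (1982 and 1668 of all), and WT replicate 2 left 6 (1809 of all). rpoA, rpl20 and rpl36 passed in all 12 fits that left out 1 array. The calls of rpoC1 and ndhI were lost without WT replicate 2 or 4 or spch replicate 2 or 3, and those of rpl14 and petG without these and without a further array each. clpP lost its call without WT replicate 3 or 4 or spch replicate 2 or 3. The psbK call was lost without any single WT or spch array.

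Against WT, some photosystem II and NDH genes and petD fell in scrm-D. In all, 11 of 77 plastid probe sets fell (14.3%) and none rose, where 7.39% of all probe sets fell and 6.76% rose. The median change was −0.33, from −1.25 to 0.09, against −0.0143 over all probe sets. Fitted changes were below 0 for 72 of 77, and in 15 the scrm-D arrays all lay below the WT arrays. The count of 15 likewise has no share over all probe sets beside it. The fallen genes were 6 of 15 for photosystem II, 4 of 11 for the NDH complex and 1 of 6 for the cytochrome b6f complex. None of 20 ribosomal protein, 4 polymerase, 6 ATP synthase or 5 photosystem I probe sets passed. The median change was −0.61 for photosystem II, −0.54 for the NDH complex, −0.16 for ribosomal proteins and −0.21 for the polymerase.

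psbK, a small subunit of photosystem II, showed little spread. It read 12.37, 12.41 and 12.31 in WT and 11.60, 11.67 and 11.50 in scrm-D. In spch it read 12.73, 12.73 and 12.69, and in the double mutant 11.99, 12.26 and 12.26. The 4 genotypes did not overlap, with spch highest, then WT, the double mutant and scrm-D. The fall in scrm-D was −0.77 ± 0.10 (SE), 1.71-fold, with an adjusted p of 0.000326. The rise in spch was 0.35 ± 0.10 (adjusted p = 0.0288), and the double mutant differed from WT by −0.19 ± 0.10 (adjusted p = 0.2).

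psbA (245047_at) read 12.60, 13.01 and 12.82 in scrm-D, all below WT, and fell by 0.69 ± 0.18 on the log2 scale (1.61-fold, adjusted p = 0.0238). psbE and psbF encode both subunits of cytochrome b559, an integral part of photosystem II. psbF read 11.82, 11.64 and 11.98 in WT and 11.32, 10.90 and 11.16 in scrm-D, a change of −0.69 (adjusted p = 0.0117). psbE changed by −0.61 (adjusted p = 0.0172), psbL by −0.66 (adjusted p = 0.0352) and psbI by −0.57 (adjusted p = 0.0295). psbL and psbI encode small subunits, and only psbI had a scrm-D array within the WT range. psbB, the CP47 antenna of the photosystem II core, read 11.21, 11.22 and 10.57 in WT and 10.47, 10.39 and 9.17 in scrm-D. Its change of −0.99 ± 0.36 did not pass (adjusted p = 0.0902), although the groups did not overlap.

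Of the NDH genes, ndhI (244935_at) read 12.71, 13.02 and 12.68 in WT, 13.57, 13.60 and 13.19 in spch, 12.17, 12.20 and 11.57 in scrm-D and 12.53, 12.29 and 12.31 in the double mutant. As for psbK, spch lay above WT and scrm-D below it without overlap. The fall in scrm-D was −0.82 ± 0.18 (1.76-fold, adjusted p = 0.00833) and the rise in spch 0.65 ± 0.18 (1.57-fold, adjusted p = 0.0221). ndhJ (245010_at) read 10.12, 9.74 and 9.65 in WT and 9.14, 8.87 and 8.23 in scrm-D. It fell by 1.09 ± 0.21 on the log2 scale (2.13-fold, adjusted p = 0.00472), while spch, at 10.09, 10.06 and 9.83, overlapped WT. ndhK (245011_at) read 9.40, 9.56 and 9.21 in WT and 8.87, 8.18 and 7.45 in scrm-D, a change of −1.22 ± 0.30 (2.33-fold, adjusted p = 0.0154). ndhA (244936_at) read 11.39, 11.50 and 10.84 in WT and 10.23, 10.92 and 9.75 in scrm-D, with overlap, and changed by −0.94 ± 0.26 (adjusted p = 0.0303).

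petD (244977_at) had the lowest fitted change of the 77. It read 6.41, 6.51 and 6.51 in WT and 5.41, 5.51 and 4.76 in scrm-D, where replicate 4 lay under the background level. It changed by −1.25 ± 0.28 (2.38-fold, adjusted p = 0.00974). The ATP synthase gene atpH, for a subunit of the membrane ring, shows how replicate 4 widened the spread: it read 11.77, 11.76 and 10.14 in WT and 11.52, 10.92 and 9.52 in scrm-D. Replicate 4 was the lowest of each group by over 1 log2 unit, and the change of −0.57 ± 0.60 had an adjusted p of 0.622, or 0.0171 with the block.

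With the replicate number as a block, 21 plastid probe sets fell in scrm-D against 9.25% of all probe sets, among them 11 of 15 for photosystem II (psbB adjusted p = 0.000901) and 1 of 20 ribosomal proteins. Without replicate 4 of every genotype 9 fell (all probe sets, 5.72%) and the median change was −0.26. With 25S rRNA as a term 7 fell (all probe sets, 4.84%), and here too that control cannot be fully separated from genotype. With the hybridization controls as a term, added after the data were seen, 17 fell (all probe sets, 8.63%). Leaving out scrm-D replicate 4 left 5 calls and a median change of −0.08, where 1094 of all 22746 probe sets fell. Leaving out WT replicate 4, 2 or 3 left 6, 7 and 7 (1274, 1131 and 1393 of all). Leaving out scrm-D replicate 3 gave 18 (1455 of all). psbK, ndhI, ndhJ and petD passed in all 12 fits that left out 1 array. ndhK lost its call without WT replicate 3 or scrm-D replicate 4. psbA lost its call without replicate 2 or 4 of WT or scrm-D, and ndhA without WT replicate 2 or 3 or scrm-D replicate 2 or 4. Of the other photosystem II genes, psbF lost its call without WT replicate 4, psbE without WT replicate 2 or 4 or scrm-D replicate 4, psbL without any WT array or scrm-D replicate 2 or 4, and psbI without WT replicate 3 or 4 or scrm-D replicate 2 or 4.

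Nuclear genes of the same complexes were listed for comparison, and 5 of 33 listed loci had a probe set that the annotation names. In scrm-D 4 of the 5 fell: PSAN and PSAE-1 of photosystem I, LHCB4.2 of the antenna and ATPC1 of the ATP synthase, with changes from −0.96 to −0.45. PSAN read 13.29, 13.27 and 13.31 in WT and 12.79, 12.63 and 12.37 in scrm-D, without overlap (change −0.69 ± 0.11, adjusted p = 0.00125). In spch none of the 5 passed, and the median change was −0.13. LHCB4.2 read 12.98, 12.88 and 12.86 in WT and 12.53, 12.46 and 12.17 in spch, a change of −0.52 with an adjusted p of 0.0764, or 0.0101 with the block. The single measured locus for an organelle RNA polymerase, AT5G15700, changed by 0.30 in spch (adjusted p = 0.111) and by 0.08 in scrm-D. No locus of the lists for polymerase-associated proteins (12 loci) or RNA editing (10 loci) was named by the annotation, and the 1 of 9 measured for RNA decay, AT5G14580, passed in no comparison.

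In the double mutant few plastid genes were lower than in WT. In all, 4 of 77 plastid probe sets fell (5.19%) and none rose, where 13.6% of all probe sets fell and 14.1% rose, so that the plastid share was below the background. The median change was −0.14 against −0.0074 over all probe sets, with 57 fitted changes below 0 and 20 above. The 4 were ndhJ, ndhK, psbA and petD, which had also fallen in scrm-D, and both comparisons use the same WT arrays. In this comparison all 5 measured nuclear genes of the same complexes fell, with changes from −0.81 to −0.46. ndhJ read 8.85, 9.22 and 8.72 and fell by 0.90 ± 0.21 on the log2 scale (1.87-fold, adjusted p = 0.00756). ndhK read 8.61, 8.50 and 8.26 (change −0.93 ± 0.30, adjusted p = 0.0334). For both NDH genes every double mutant array lay below every WT array. petD read 5.70, 5.89 and 5.02 (change −0.94 ± 0.28, adjusted p = 0.0244). psbA read 12.60, 13.15 and 13.07 (change −0.55 ± 0.18, adjusted p = 0.0382), also without overlap. Of the other genes that fell in scrm-D, ndhI changed by −0.43 ± 0.18 here (adjusted p = 0.0963).

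Without replicate 4 of every genotype, 12 plastid probe sets fell in the double mutant, against 12.6% of all probe sets, and 1 rose. With 25S rRNA as a term 2 fell (all probe sets, 8.69%), and with the hybridization controls 7 (all probe sets, 14.3%). Leaving out WT replicate 2 or 4 left 1 call, where 2467 and 2535 of all 22746 probe sets fell. Leaving out WT replicate 3 or double mutant replicate 2 or 4 left 2 (2751, 2546 and 2740 of all). Leaving out spch replicate 4 gave 8 (3235 of all). ndhJ passed in all 12 fits that left out 1 array. ndhK was lost without any single WT or double mutant array, petD without any WT array or double mutant replicate 4, and psbA without WT replicate 2 or 4, spch replicate 2 or double mutant replicate 2.

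Set directly against scrm-D, the double mutant had 1 of 77 plastid probe sets higher and none lower, where 7.45% of all probe sets were higher and 5.94% lower. The higher gene was psbK, by 0.58 ± 0.10 (adjusted p = 0.00218), and it passed in all 12 fits that left out 1 array. The median change was 0.20, with 71 fitted changes above 0 and 6 below. Without scrm-D replicate 4 the median was −0.07, and without scrm-D replicate 3 the count was 6 (all probe sets, 1355 of 22746). With the replicate number as a block 5 plastid probe sets were higher, against 9.39% of all probe sets.

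The spch arrays and the arrays of both genotypes with scrm-D can be compared without the WT arrays. These contrasts of the same fit were added after the data were seen. In scrm-D 41 of 77 plastid probe sets (53.2%) were lower than in spch and none was higher, where 14.7% of all probe sets were lower. The median difference was −0.82, from −1.69 to −0.11, so that the fitted difference was below 0 for all 77. In 40 of them the 3 scrm-D arrays lay below the 3 spch arrays, again a count with no share over all probe sets beside it. The lower probe sets covered 11 of 15 for photosystem II, 8 of 11 for the NDH complex, 12 of 20 ribosomal proteins, 2 of 4 polymerase subunits, 3 of 6 for the cytochrome b6f complex and 1 of 6 for the ATP synthase. No photosystem I probe set passed.

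ndhI differed between scrm-D and spch by −1.47 ± 0.18 (2.77-fold, adjusted p = 7.06e-05) and psbK by −1.13 ± 0.10 (2.18-fold, adjusted p = 8.14e-06). rpoA was 1.95-fold lower in scrm-D (adjusted p = 0.000118), rpl20 2.56-fold (adjusted p = 0.000948) and petG 2.37-fold (adjusted p = 0.000962). For all of these the arrays of both genotypes were fully apart. rbcL read 10.74, 10.48 and 9.74 in scrm-D, below all spch arrays, a difference of −1.15 ± 0.34 (2.22-fold, adjusted p = 0.0205). ndhH, an NDH subunit that has the widest fitted difference, −1.69 ± 0.60, did not pass (adjusted p = 0.0502), with 8.63, 8.34 and 7.41 in spch and 7.50, 6.66 and 5.13 in scrm-D. Its replicate 4 was again the lowest array of each group.

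In the double mutant 26 of 77 plastid probe sets (33.8%) were lower than in spch and none was higher, where 16.1% of all probe sets were lower. The median difference was −0.60, and 75 of 77 fitted differences were below 0. ndhG, another NDH subunit, read 8.31, 8.21 and 7.39 in spch and 6.52, 6.41 and 6.34 in the double mutant. The groups did not overlap, and the difference was −1.55 ± 0.30 (2.92-fold, adjusted p = 0.00167). Photosystem II gave 10 of the 26 and the NDH complex 8, against 4 of the 20 ribosomal proteins. With the replicate number as a block the count was 54, against 18.0% of all probe sets. Leaving out 1 array gave 16 to 34 lower probe sets in the double mutant (lowest without double mutant replicate 2, highest without spch replicate 4) and 25 to 55 in scrm-D. Of all 22746 probe sets, 3181 were lower in the fit with 16 and 3332 in the fit with 34. The 25 came without scrm-D replicate 4 (2773 of all), with a median difference of −0.50, and the 55 without spch replicate 4 (2862 of all). Leaving out spch replicate 2 gave 26 in scrm-D (2703 of all) and 17 in the double mutant (3143 of all). rpoA, rpl20, rpl36, ndhI, ndhJ, psbK, psbE, psbF, psbL, petG, petL and ndhG passed in all 12 such fits of both contrasts.

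By group means, spch was the highest genotype for 70 of the 77 plastid probe sets, WT for 6 and the double mutant for 1. scrm-D was the lowest for 66, the double mutant for 6 and WT for 5. This order is a description of the means, and its lower end depended on replicate 4. Without replicate 4 of every genotype the median change against WT was −0.26 in scrm-D and −0.26 in the double mutant. The double mutant then lay above scrm-D for 48 probe sets and below it for 29, with a median of 0.06, and without scrm-D replicate 4 alone the median was −0.07. Between WT and the double mutant 4 probe sets passed, and between the double mutant and scrm-D 1.

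Many of the called plastid genes lay beside each other in the order of the measured genes. The 69 plastid probe sets with 1 gene were put in the order of the genes on the plastid genome in the reference annotation. Genes without such a probe set are skipped, so that direct neighbours in that order need not be adjacent on the genome. Of the 11 that fell in scrm-D, 9 had a fallen gene as a direct neighbour in that order. They formed the pairs psbK and psbI, ndhJ and ndhK, and ndhI and ndhA, and the run psbL, psbF and psbE, while psbA and petD stood alone. Of the 9 that rose in spch, 5 had a risen neighbour, in the runs rpl20 with clpP and rpoA with rpl36 and rpl14. Genes of such runs are transcribed together in plants as a rule, and they share library and position, so that they are not independent measurements.

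The change against WT correlated between direct neighbours at r = 0.32 in spch, 0.28 in scrm-D and 0.24 in the double mutant (68 neighbour pairs, across genes). For genes 2 places apart it was −0.05, −0.05 and −0.03 (67 pairs), and for genes 10 places apart 0.29, −0.11 and −0.14 (59 pairs), so that in spch the value was not confined to direct neighbours. With the block, 24 of the 28 genes that rose in spch had a risen neighbour, among them the run rps2, rpoC2, rpoC1 and rpoB and the run rbcL, accD and psaI. In scrm-D 16 of 20 fallen genes had a fallen neighbour with the block. The more of the 69 genes are called, the more have a called neighbour in any order. The share to expect was not computed, for these counts or for those without the block.

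The replicate 4 deficit was itself a pattern of plastid genes. On replicate 4, 53 of 77 plastid probe sets (68.8%) lay below their group mean in all 4 genotypes, against 13.9% of all probe sets. The deviation of replicate 4 was taken from the mean of the other arrays of the same genotype. Its median over the 77 was −0.35 in WT, −0.41 in spch, −0.76 in scrm-D and −0.17 in the double mutant. Gene by gene these deviations were alike, with r between 0.70 and 0.80 for any pair of genotypes (77 probe sets, which share array and position). The deviation was largest for rps12, a ribosomal protein gene in several parts, with a median of −1.60 over the genotypes, and for atpH at −1.58, ndhH at −1.43, atpI at −1.35 and psaA at −1.21. The photosystem II genes psbM and psbF lay above the group mean on replicate 4 in all 4 genotypes. Neighbouring genes deviated alike (r = 0.41, 68 pairs), and longer genes deviated further downward (r = −0.40 between gene length and deviation, 69 genes). The labels do not say what the replicate number marks.

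The mitochondrial probe sets had median changes near 0 against WT. The median change of the 13 was 0.02 in spch, 0.00 in scrm-D and −0.03 in the double mutant against WT, and 0.14 in the double mutant against scrm-D. In spch 1 rose (7.69%) and none fell, in scrm-D none passed, and in the double mutant 2 rose (15.4%) and none fell. The shares that rose are near the 9.6% of all probe sets in spch and 14.1% in the double mutant. The risen gene in spch was nad4 (244929_at), a complex I subunit. It read 9.09, 8.93 and 8.72 in WT and 9.42, 9.63 and 9.18 in spch, a rise of 0.50 ± 0.14 (1.41-fold, adjusted p = 0.0292). The spch arrays lay above the WT arrays, but the call was lost without WT replicate 3 or 4 or spch replicate 2 or 3.

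In the double mutant ccmFN1 (244912_at), listed under the older symbol ccb382 and needed to mature cytochrome c, read 8.57, 8.58 and 8.48 against 7.96, 8.09 and 8.0 in WT. It rose by 0.53 ± 0.12 (1.44-fold, adjusted p = 0.00537). The probe set shared by the ribosomal protein genes rps3 and rpl16 read 8.78, 9.43 and 8.81 against 8.01, 8.33 and 7.47, a rise of 1.07 ± 0.26 (2.10-fold, adjusted p = 0.00817). Both rises were without overlap and passed in all 12 fits that left out 1 array. nad6, nad7, nad9, matR, ccmB and cox2 passed in no comparison with WT, and the mean of each over all arrays lay under the background level.

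Nuclear genes of the respiratory chain, of which 6 of 17 listed loci had a named probe set, were higher in scrm-D. There 5 of 6 rose, where 6.76% of all probe sets did, and the median change was 0.50. CYTC-2, a cytochrome c, read 9.57, 9.43 and 9.06 in WT, 10.34, 10.27 and 10.09 in scrm-D and 8.64, 8.58 and 9.08 in the double mutant. It rose in scrm-D by 0.88 ± 0.16 (adjusted p = 0.00314) and fell in the double mutant by 0.59 ± 0.16 on the log2 scale (adjusted p = 0.0167). SDH2-2, the iron-sulfur subunit of succinate dehydrogenase, rose in scrm-D by 0.65 ± 0.12 (adjusted p = 0.00371), with 9.58, 9.52 and 9.60 in WT and 10.19, 10.13 and 10.31 in scrm-D. CYTC-1 and SDH2-1 rose in scrm-D by 0.52 (adjusted p = 0.00252) and 0.44 (adjusted p = 0.0101). CYTC-1, the other cytochrome c gene, also rose in the double mutant, by 0.31 (adjusted p = 0.0246) and without overlap with WT. Thus 1 of the 6 rose and 1 fell in the double mutant. None of the 6 passed in spch.

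The 15 nuclear probe sets in the id range fall into 5 for AT2G07 loci and 10 for AT2G26 loci. In Col-0, chromosome 2 carries a large insertion of mitochondrial DNA at the AT2G07 loci, so that 4 of these 5 probe sets carry an id suffix for probes shared between transcripts, and mitochondrial RNA cannot be told apart from nuclear RNA there. None of the 5 passed in any comparison. Of the 10 AT2G26 loci, 1 rose and 1 fell in spch, 1 fell in scrm-D and 4 fell in the double mutant against WT. Another count, of 1, was lower in the double mutant than in scrm-D. Of all probe sets, 9.6% rose and 9.93% fell in spch, 7.39% fell in scrm-D and 13.6% fell in the double mutant. Against scrm-D, 5.94% of all were lower in the double mutant. The counts of 1 in 10 are near these shares. AT2G26500 (245044_at) read 13.65, 13.51 and 13.67 in WT, 14.00, 14.04 and 13.95 in spch, 13.31, 13.20 and 12.95 in scrm-D and 12.96, 13.07 and 13.23 in the double mutant. It rose in spch (0.39, adjusted p = 0.0346) and fell in scrm-D (−0.46, adjusted p = 0.0192) and in the double mutant (−0.53, adjusted p = 0.00488), each without overlap with WT. The call in spch was lost without any single WT or spch array, and that in scrm-D without WT replicate 2 or 4 or scrm-D replicate 4. AT2G26520 (245040_at) read 5.43, 5.51 and 5.72 in WT, 4.87, 5.07 and 5.07 in spch, 5.31, 5.31 and 5.12 in scrm-D and 4.72, 4.67 and 4.77 in the double mutant, the last under the background level. It fell in spch (−0.55, adjusted p = 0.00405) and in the double mutant (−0.83, adjusted p = 0.000141), and was lower there than in scrm-D (−0.53, adjusted p = 0.00674). All 3 calls held in the 12 fits that left out 1 array. YAB5, a YABBY transcription factor, fell in the double mutant by 1.06 ± 0.30 on the log2 scale (adjusted p = 0.0198), with overlap, and the call was lost without WT replicate 2 or 4 or double mutant replicate 2.

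Of the 45 unnamed probe sets, 245038_at differed most. It read 4.73, 4.79 and 4.80 in WT, under the background level, and 5.16, 4.98 and 5.54 in spch. In scrm-D it read 6.45, 6.29 and 6.75, and in the double mutant 8.69, 8.72 and 8.14. The double mutant lay 4.06-fold above scrm-D (2.02 ± 0.18, adjusted p = 1.03e-05), and no arrays of these groups overlapped. Its gene is not given in the annotation used here. Over all 150 probe sets of the run, 16 rose (10.7%) and 3 fell (2.0%) in spch, where 9.6% of all probe sets rose and 9.93% fell. In scrm-D 1 rose (0.667%) and 13 fell (8.67%), against 6.76% and 7.39% of all probe sets. In the double mutant 4 rose (2.67%) and 9 fell (6.0%) against WT, where 14.1% and 13.6% of all did. Against scrm-D, 3 were higher in the double mutant (2.0%) and 1 lower (0.667%), where 7.45% and 5.94% of all were. With each array centred on the probe sets outside the run, 19 rose and 1 fell in spch. Centring also moved all probe sets there, to 2483 risen and 1949 fallen from 2183 and 2259. In scrm-D 1 rose and 14 fell (all probe sets, 1359 and 1852), and in the double mutant 4 and 13 (2524 and 3571). Against scrm-D, 3 were higher in the double mutant and 1 lower (1458 and 1526).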

How the data were processed

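The values deposited by the authors are log2 expression levels of probe sets, spanning 3.13 to 14.63. RMA and limma appear in the submitters' processing notes with no version, and the sources used here give no genome build. Per the labels' protocols, seeds had 2 days of stratification at 4 °C, and seedlings grew at 21 °C under a day of 18 h light and 6 h dark. Array medians ran from 6.39 up to 6.53. Precision is limited by having 3 arrays a group.

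The 64 control probe sets were left out. The deposited log2 values of 22746 probe sets of all 12 arrays entered a single limma fit (limma 3.58.1, R 4.3.3) that estimated a mean for each genotype and held no block (prior degrees of freedom 4.41). Each two-sided p was adjusted by Benjamini-Hochberg over all probe sets of its comparison, and a call is an adjusted p under 0.05. Changes and SE are on the log2 scale, and a fold is 2 to that power. The fit was tested on simulated data.

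Genes were named through the platform annotation. Plastid genes were matched by gene identifier to the plastid genome of TAIR10.1. Mitochondrial genes were matched by symbol to its mitochondrial genome, 5 of them through older symbols. Gene order and length come from the same annotation. The members and lists were chosen with earlier results of these data known. Named genes were, among probe sets with 1 gene, up to 5 called rises and falls without overlap per comparison and genome, 26 plastid and 21 mitochondrial genes of fixed name (22 and 7 measured), and up to 4 called members of each nuclear list. psbE, psbF, psbI, psbL, psbM, petL, ndhG, ndhH, rpoC2, atpI, rps12, the probe sets with 2 gene names and the nuclear and unnamed probe sets of the run fall outside that rule and were chosen after their values were seen.

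Replicate numbers were taken to pair arrays where every same-numbered pair had correlated deviations from the group means, over 0.1. Between WT and spch these correlations ran from 0.138 to 0.174, between WT and scrm-D from 0.103 to 0.299, between scrm-D and the double mutant from 0.215 to 0.525, and between spch and the double mutant from 0.110 to 0.251. For the double mutant with WT (0.0826 at the lowest) and scrm-D with spch (0.0338) the limit was missed. Some unlike-numbered pairs also passed it, as spch replicate 2 with WT replicate 3 (0.102) and double mutant replicate 2 with scrm-D replicate 3 (0.177). The pairing comes from the values. Alternatives were the block, 25S rRNA or hybridization controls as a term, a filter on low values, centring, trend and robust moderation, only the groups compared, probe sets with shared probes left out, and arrays left out.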

Additional observations from a re-analysis of the deposited data

Results flagged for a closer look

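The phe controls, bacterial transcripts used on arrays as labelling controls, read 5.15 on average on replicate 4 of the double mutant. On the other 8 arrays of genotypes other than scrm-D they read 4.15 to 4.34, and on the scrm-D arrays 13.07 to 13.09. The value was noted because these controls lie outside the comparisons and stood above the other arrays of the same kind. The scrm-D arrays differ from all others in these controls, so that this difference and the genotype cannot be told apart. Its part in the plastid values was not tested beyond the fits that left this array out.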

How the results depend on the processing

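With the replicate number as a block, 43 of the 150 probe sets were called in spch against WT (19 without it), 25 in scrm-D (14), 22 in the double mutant (13) and 9 in the double mutant against scrm-D (4). Of all 22746 probe sets, the block called 2654 higher and 2762 lower in spch and 1968 and 2105 in scrm-D. For the double mutant against scrm-D it called 2136 and 1820. For the double mutant against WT, where the numbers do not pair the arrays by the limit used, 11 plastid probe sets fell (14.3%) and 1 rose (1.3%) with the block. Of all 22746, 3491 fell and 3728 rose there. For scrm-D against spch 68 plastid probe sets were lower (88.3%), where 3896 of all 22746 were. With 25S rRNA as a term 8 of the 150 were called in spch, 8 in scrm-D and 7 in the double mutant, each against WT. For spch and scrm-D that control cannot be fully separated from genotype. Without replicate 4 of every genotype, an alternative chosen after seeing the data, 29 were called in spch and 23 in the double mutant against WT. Leaving out 1 array gave 8 to 22 calls in spch, 6 to 21 in scrm-D, 8 to 17 in the double mutant and 3 to 8 in the double mutant against scrm-D. The plastid median then ran from 0.28 to 0.55, from −0.46 to −0.08, from −0.25 to −0.09 and from −0.07 to 0.32, and the mitochondrial median from −0.03 to 0.15, from −0.09 to 0.01, from −0.08 to 0.02 and from 0.09 to 0.18. The mitochondrial median of the double mutant against WT was −0.03, and 0.25 with the filter on low values, which kept fewer probe sets. Otherwise the cause was not tested. No named change reversed its direction while called. Of the 13 mitochondrial probe sets 7 lie under the background level, which limits what they can show.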
